A study of Mus musculus with 36 samples.

Results

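The Runx and Ets transcription factors described here were 10 genes chosen by symbol: Runx1, Runx2, Runx3, their partner subunit Cbfb, and the Ets family members Ets1, Fli1, Elf1, Erg, Gabpa and Etv6. Of these 10, 9 had a row among the 12762 genes of the expression table and were read in all 36 libraries, and Erg is not analysed here. They were chosen by name, with no threshold on a measured value.

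Runx proteins bind DNA in a complex with Cbfb, which does not touch DNA itself but strengthens the binding, and they either activate or silence genes depending on the cofactors they bring. Ets proteins share a winged-helix domain that reads a GGAA core and often sit beside Runx, Pax5 or Ebf1 at the promoters and enhancers of B lineage genes. Members of both families set the early B cell programme and are recurrent targets of leukaemia fusions, the ETV6-RUNX1 fusion of childhood B precursor leukaemia among them.

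The measurements were bulk mRNA sequencing of B3, a mouse pre-B cell line, in 12 groups of 3 libraries: 2 lines at 6 times. The Ikaros line carried a retroviral construct for HA-tagged Ikaros fused to the ERt2 hormone-binding domain, with GFP behind an IRES, and the control line the same kind of vector with ERt2 and GFP but no Ikaros. Both lines were GFP-sorted transduced populations of B3 and received 4-hydroxy-tamoxifen (4-OHT, 0.5 uM), which moves the ERt2 fusion into the nucleus, at 2, 6, 12, 18 or 24 h before harvest. The 0 h cells were described in the methods as free of 4-OHT and were collected on separate occasions, although the labels list the dose for every library, so a change from 0 h also spans different culture occasions. Replicates were culture batches: 1, 2 and 4 at 0 h and 1, 3 and 4 at all later times, and within every group the values below follow that order.

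Expression is given on the deposited log2 scale, corrected by the authors for GC content, gene length and library preparation, on which no library median was above 11.73. The log base is not written in the table, so every fold here rests on reading it as base 2. A log2 difference always means Ikaros minus control at the same time. A gene was called where the adjusted p of limma, over all 12762 genes, was under 0.05. Ikzf1, the gene that encodes Ikaros, checked the line labels: its group means were 14.28 to 14.70 in control and 19.89 to 20.71 in Ikaros cells, and the difference was 5.19 at 0 h and 6.10 at 24 h. All 10 listed pre-B markers were in the table, with library means of 13.14 to 14.14. Of markers of other blood and vessel cells, 2 of 7 T cell, 2 of 7 myeloid, 4 of 7 megakaryocyte and erythroid and 2 of 5 endothelial genes were in the table, without Cd3d, Cd3e, Cd3g, Cd4, Cd8a, Csf1r, Mpo, Gata1, Pf4, Cdh5 or Kdr. Since the libraries are bulk, fewer cells of a type and less RNA per cell cannot be told apart in any value below.

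The factors split into members that differed early, members that differed late and members that hardly differed. Runx1 fell and Runx3 rose at 2 and 6 h and both returned towards control by 18 h. Etv6 fell by 2 h and stayed low. Ets1 was higher in Ikaros cells before induction and the gap widened, and Elf1 and then Fli1 rose later. Runx2 was lower at every time, Gabpa differed little and Cbfb was not called at any time.

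**Figure D1:**
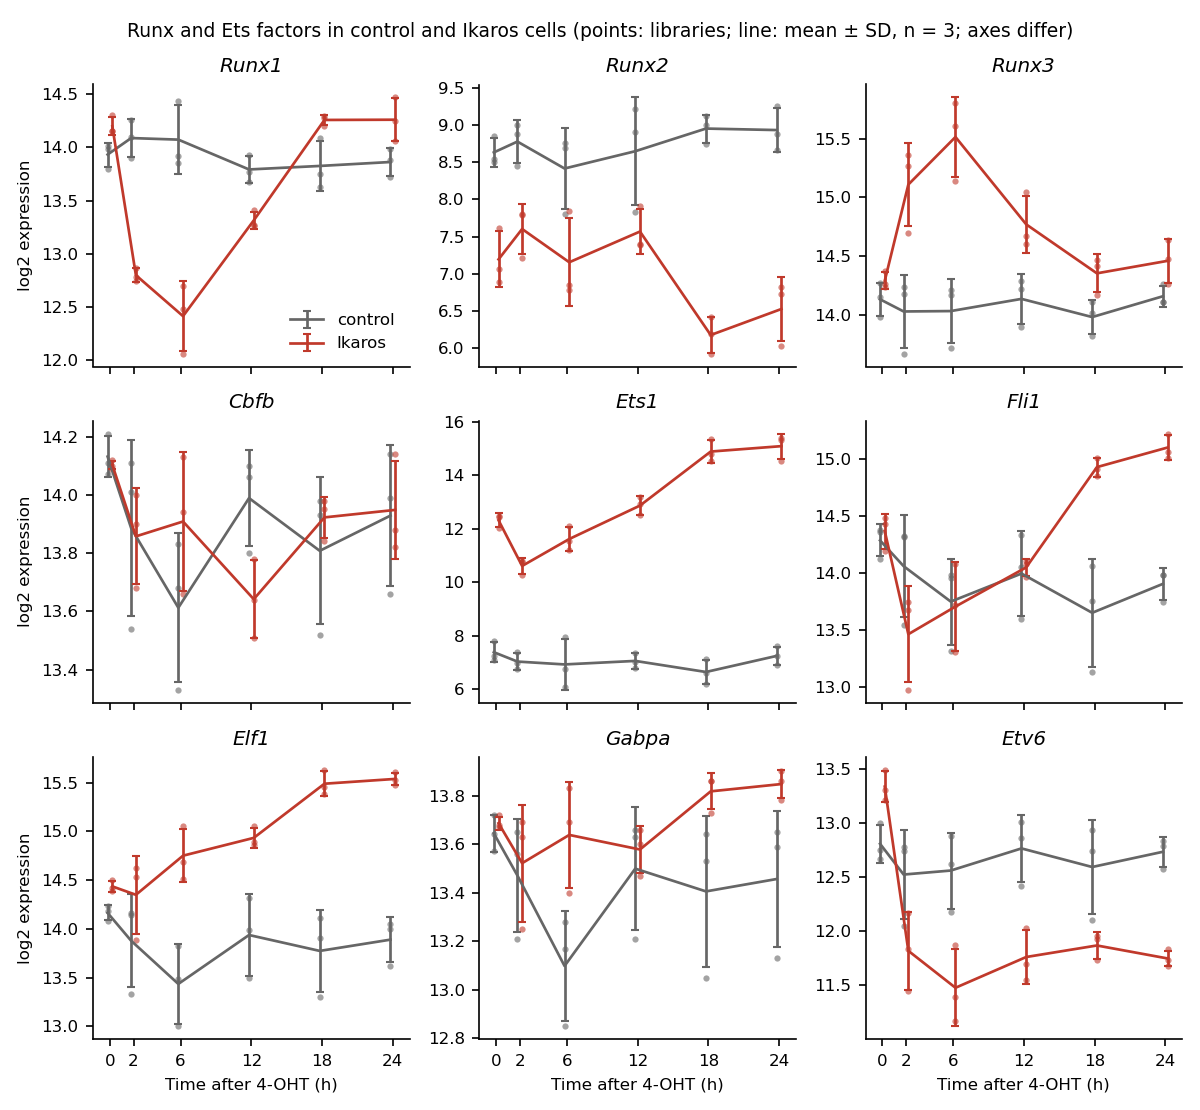
Log2 expression (y axes, which differ between panels) of the 9 factors against hours after 4-OHT, with each library as a point and the mean ± SD of 3 libraries as a line, grey for control and red for Ikaros cells. Runx1 dips to 12.41 and Runx3 peaks at 15.51 at 6 h in Ikaros cells, and Ets1 climbs from 10.60 at 2 h to 15.08 at 24 h while control stays between 6.64 and 7.38.

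Of the 9 members, 2 were called between the lines at 0 h, where 8.33% of all genes were. At 2 h the count was 5 against a background of 19.1%, and at 6 h it was 7 against 37.3%. At 12 h it was 6 against 45.8%, at 18 h 7 against 58.2%, and at 24 h 7 against 62.9%. By direction, 1 member was higher and 1 lower at 0 h, against 4.61% and 3.72% of all genes, and 2 were higher and 3 lower at 2 h, against 9.18% and 9.88%. At 6 h 4 were higher and 3 lower (18.1% and 19.2% of all genes), and at 12 h 3 each way (23% and 22.8%). At 18 h 5 were higher and 2 lower (29% and 29.2%), and the counts were the same at 24 h (31% and 31.9%). In this fit the share of members called was above that of all genes at every time, and the background itself climbed over the course. Without replicate 2 it was below at 12 h, with 2 members and 3769 of 12762 genes called. The libraries of the lines did not overlap for 5, 4, 6, 6, 8 and 8 of the 9 members at the 6 times in order, against 32.7%, 27.9%, 41%, 51%, 64.5% and 71% of all genes.

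Over time, 7 of the 9 members changed in their difference between lines by an F test over the 5 changes from 0 h, where 59.8% of all genes did. Cbfb and Gabpa were the other 2, with adjusted p = 0.196 and 0.184, which became 0.0286 and 0.0298 with culture batch as a block. Within Ikaros cells 7 of 9 varied with time against a background of 76.4%, and for Cbfb the adjusted p of 0.168 became 0.0131 with the block. Within control cells 0 of the 9 were called by limma, against 1.69% of all genes, and 0 had an unadjusted p under 0.05. With the batch block 2 members passed in control cells, Cbfb at adjusted p = 0.0452 and Gabpa at 0.0471. That fit called 763 of the 12762 genes, where the fit without the block called 216.

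Culture batch 4 was low for these genes in control cells at 2 to 24 h and in Ikaros cells at 2 and 6 h. In control cells all 9 members had their lowest value in batch 4 at 2 h, and 8, 8, 7 and 6 of them did at 6, 12, 18 and 24 h, where 35.7% to 41.2% of all genes did. In Ikaros cells the counts were 8, 7, 4, 4 and 5, where 40.3%, 39.6%, 36.5%, 34.1% and 28.8% of all genes did. Both lines of a batch were harvested together, so the difference was also taken inside each batch, and its values are given beside the results. Replicate 3 was culture batch 4 at every time, so the fit without replicate 3 left it out. That fit newly called Fli1 and Elf1 at 2 h (limma adjusted p = 0.00906 and 0.0467) and Cbfb at 12 h (0.0118). Runx3 was added at 18 and 24 h (0.0109 and 0.0118) and in the change from 0 to 2 h (0.00346). In the F test of the 5 changes, Cbfb (0.0400) and Gabpa (0.00908) were added. Lost were Runx1 at 18 h (0.0600), and Runx2 from 2 to 24 h (0.251) and in that F test (0.0801). What lowered batch 4 was not tested.

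**Figure D2:**
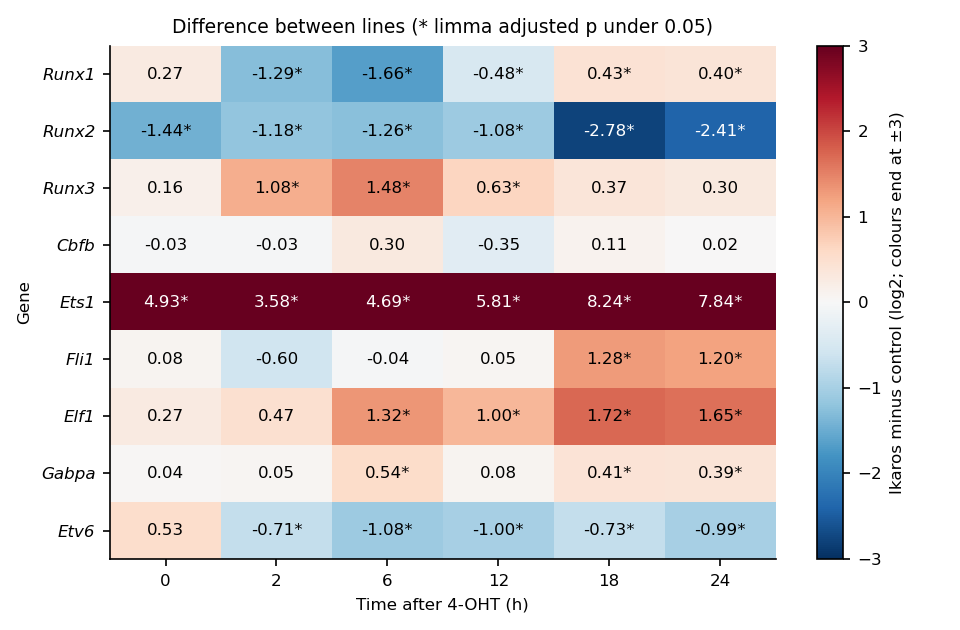
Log2 difference, Ikaros minus control, for the 9 factors (rows) at each time after 4-OHT in hours (columns), coloured from blue to red with the colours ending at ±3, and with an asterisk where the limma adjusted p is under 0.05. Runx1 passes from -1.66 at 6 h to 0.43 at 18 h, Runx3 is highest at 1.48 at 6 h, and Ets1 is off the colour scale at every time.

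Among the DNA-binding Runx subunits, Runx1 is needed for the emergence of blood stem cells and for early B lineage specification, and is transcribed from a distal and a proximal promoter. The gene lies at chr16:92601466-92826149 on the minus strand (GRCm38). The table holds a single value for the gene, so its starts cannot be separated. The 250 bases before its second start in the RefSeq promoter table (GRCm38.p6, chr16:92697330-92697579, minus strand), inside an intron of the longest transcript, are shown because Runx1 was the member furthest below control at 2 and 6 h. Capitals mark a match to the Ets letters CCGGAA at positions -106 to -101 from the start.

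Runx1 second start: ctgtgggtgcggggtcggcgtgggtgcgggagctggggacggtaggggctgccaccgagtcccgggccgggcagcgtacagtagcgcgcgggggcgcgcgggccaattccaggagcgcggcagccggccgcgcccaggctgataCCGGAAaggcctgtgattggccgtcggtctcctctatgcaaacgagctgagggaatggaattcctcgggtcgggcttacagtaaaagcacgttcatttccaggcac

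Before induction Runx1 was 13.98, 13.80 and 14.01 in control libraries and 14.15, 14.15 and 14.30 in Ikaros libraries. The lines did not overlap there, but the difference of 0.27 ± 0.15 (SE) was not called (limma adjusted p = 0.366). At 2 h control libraries were at 14.26, 14.10 and 13.90 and Ikaros libraries at 12.78, 12.87 and 12.74. The whole Ikaros group lay more than 1 log2 unit under the lowest control library, and the difference was -1.29 ± 0.15 (limma adjusted p = 4.66e-07). At 6 h the Ikaros libraries reached 12.70, 12.48 and 12.06 against 14.44, 13.85 and 13.92 in control. This was the lowest point of Runx1, 3.16-fold under control, a difference of -1.66 ± 0.15 (limma adjusted p = 2.94e-09).

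Runx1 then returned. At 12 h Ikaros libraries were at 13.27, 13.41 and 13.26, still below control at 13.93, 13.77 and 13.67, with a difference of -0.48 and adjusted p = 0.0113. At 24 h they were at 14.25, 14.47 and 14.06, all above the control libraries at 13.98, 13.72 and 13.88. The sign had turned: the difference was 0.43 at 18 h (limma adjusted p = 0.0165) and 0.40 at 24 h (limma adjusted p = 0.0247). The changes themselves were called from 0 to 2 h (-1.55 ± 0.21, limma adjusted p = 3.78e-05) and from 2 to 24 h (1.69 ± 0.21, limma adjusted p = 3.45e-07), but not from 0 to 24 h (0.13 ± 0.21, adjusted p = 0.639). In Ikaros cells the order of the means was 6, 2, 12, 0, 18 and 24 h from lowest to highest. The groups at 6, 2 and 12 h were each separate from the next, and those at 0, 18 and 24 h overlapped.

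The fall of Runx1 at 2 and 6 h was present in every batch, with batch differences of -1.48 to -1.16 and -1.86 to -1.38. The later calls depended on single batches. Batch differences were 0.20 to 0.64 at 18 h and 0.18 to 0.75 at 24 h, and without replicate 2 (culture batch 3) the differences were 0.33 (limma adjusted p = 0.237) and 0.22 (limma adjusted p = 0.415). The call at 18 h was also lost without replicate 3 (culture batch 4, limma adjusted p = 0.0600). That at 12 h was lost without replicate 1 (culture batch 1, limma adjusted p = 0.0739) or replicate 2 (limma adjusted p = 0.0753).

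Runx3, best known for silencing Cd4 in CD8 T cells and also present in B cells, lies at chr4:135120652-135177990 on the plus strand. The 250 bases before its first start in the RefSeq table (GRCm38.p6, chr4:135120395-135120644, plus strand) are shown because they held a match to both the Runx and the Ikaros letters, as no other window searched did. No window of Ets1 or Fli1 was searched. Capitals mark the Ikaros letters TGGGAA at -154 to -149 and ACCACA, the Runx letters on the other strand, at -134 to -129 and at -126 to -121.

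Runx3 first start: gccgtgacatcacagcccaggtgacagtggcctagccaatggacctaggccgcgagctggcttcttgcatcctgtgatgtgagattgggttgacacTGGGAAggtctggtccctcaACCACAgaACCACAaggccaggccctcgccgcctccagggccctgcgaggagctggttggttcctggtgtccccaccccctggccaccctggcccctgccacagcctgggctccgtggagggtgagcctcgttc

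On either strand the Runx letters TGTGGT were present in 14.0%, the Ikaros letters TGGGAA in 21.6% and the Ets letters CCGGAA in 12.0% of the 32851 windows of 250 bases before all starts of that table. No match overlapped another. For the Runx1 and Runx3 windows shown, the bases just after the start were not found in an annotated GENCODE transcript of the gene. They were found for every other member window. A match is a description of letters and was not tested as a binding site. The second window of Runx3 and the first of Runx1 held none of these letters, nor did those of Cbfb and Elf1. The window of Runx2 held a Runx match and that of Gabpa an Ets match.

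Runx3 moved opposite to Runx1. At 0 h control libraries were at 14.27, 14.15 and 13.98 and Ikaros libraries at 14.37, 14.26 and 14.24, which overlapped (difference 0.16 ± 0.19). At 2 h Ikaros libraries were at 15.36, 15.27 and 14.70, all above control at 14.18, 14.24 and 13.67. The difference was 1.08 ± 0.19 (limma adjusted p = 0.000113). At 6 h Ikaros libraries were at 15.80, 15.61 and 15.14 against 14.21, 14.17 and 13.72 in control, the highest Runx3 of the course. That difference of 1.48 ± 0.19 was 2.79-fold (limma adjusted p = 5.7e-07).

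It then came down to 0.63 at 12 h (adjusted p = 0.00644). At 18 and 24 h the lines still did not overlap, but the differences of 0.37 and 0.30 were not called by limma (adjusted p = 0.0878 and 0.160). With the batch block they were called (adjusted p = 0.00375 and 0.0148). Inside batches the Runx3 differences were 1.03 to 1.18 at 2 h and 1.42 to 1.59 at 6 h, while batch 4 was lower in both lines. The change from 0 to 2 h was 0.92 ± 0.26 (limma adjusted p = 0.0521), which became 0.000334 with the block, and from 2 to 24 h it was -0.78 ± 0.26 (limma adjusted p = 0.0166). The latter was lost without replicate 1 (adjusted p = 0.128) or replicate 2 (adjusted p = 0.108), and the 12 h call without replicate 2 (adjusted p = 0.120). With only the compared groups in the fit, the call at 2 h had limma adjusted p = 0.0567.

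The balance of these paralogs inside a library shows both moves at once. The value of Runx3 minus Runx1, each corrected for length by the authors, lay between -0.23 and 0.54 in the control libraries. In Ikaros cells its mean was 0.09 at 0 h, 2.31 ± 0.32 (SD, n = 3) at 2 h, 3.10 ± 0.02 at 6 h and 1.46 ± 0.16 at 12 h. At 18 and 24 h it was 0.10 ± 0.12 and 0.20 ± 0.03, inside the range of the control libraries. All Ikaros libraries at 2, 6 and 12 h lay above that range, and the 3 batches at 6 h were at 3.09, 3.13 and 3.08.

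Runx2, the master regulator of bone formation, was the low paralog in this pre-B line, at chr17:44495987-44814797 on the minus strand. Its group means were 8.42 to 8.96 in control and 6.17 to 7.60 in Ikaros cells, under the library medians in both. At 0 h control libraries were at 8.54, 8.51 and 8.86 and Ikaros libraries at 7.06, 6.89 and 7.62, a difference of -1.44 ± 0.32 (limma adjusted p = 0.00391). This difference preceded 4-OHT. At 18 h Ikaros libraries were at 6.18, 6.41 and 5.92 and control libraries at 9.0, 8.75 and 9.12, the widest gap, -2.78 ± 0.32 (limma adjusted p = 3.9e-08). At 24 h it was -2.41. The lines overlapped at 6 and 12 h, where 1 control library, of batch 4, was at 7.80 and at 7.83. The change from 2 to 24 h was -1.23 ± 0.46 (limma adjusted p = 0.0288) and that from 0 to 24 h -0.97 ± 0.46 (adjusted p = 0.0835). Without replicate 1 or replicate 3 the former had limma adjusted p = 0.0893 and 0.251. The calls at 0, 2 and 12 h were lost without replicate 1 (limma adjusted p = 0.124, 0.122 and 0.152) and without replicate 2 (0.141, 0.278 and 0.0925), and that at 6 h without replicate 2 (0.134). With only the compared groups in the fit the limma adjusted p was 0.0777 at 6 h and 0.0747 at 12 h.

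Cbfb, the shared partner of the 3 Runx proteins, lies at chr8:105170674-105217989 on the plus strand. Its 36 libraries spanned 13.33 to 14.21, the narrowest range of the 9 members. The difference between lines was -0.03, -0.03, 0.30, -0.35, 0.11 and 0.02 at the 6 times in order, each ± 0.16, and none was called. At 12 h all 3 Ikaros libraries, at 13.64, 13.78 and 13.51, were under the control libraries at 14.06, 14.10 and 13.80 (limma adjusted p = 0.0747, and 0.0137 with the batch block). At 6 h the libraries overlapped and the adjusted p was 0.144, or 0.0389 with the block. At all 6 times the mean of Cbfb in Ikaros cells stayed within 0.35 of control. Runx1 and Runx3 differed by over 1 log2 unit at 2 and 6 h only.

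**Figure D3:**
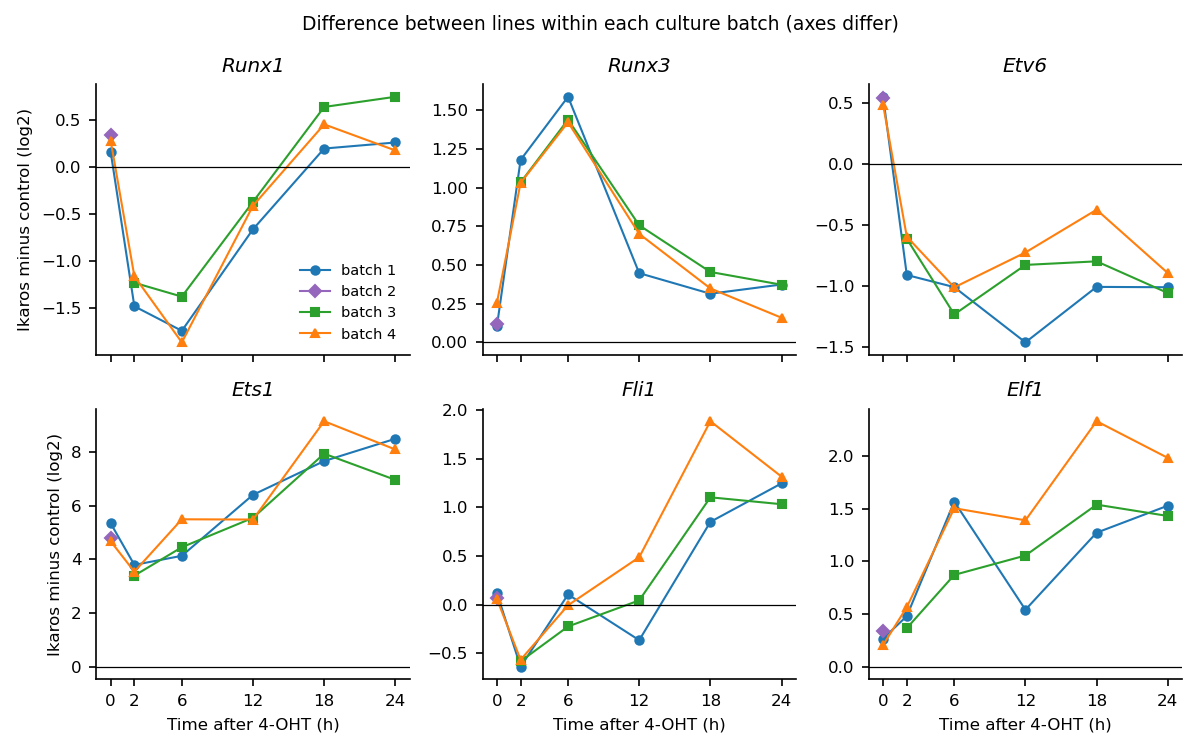
Log2 difference, Ikaros minus control, inside each culture batch (coloured lines with markers) against hours after 4-OHT, for 6 factors with differing y axes and a line at 0. The batches follow each other for Runx1 and Runx3, with Runx3 between 1.42 and 1.59 at 6 h in the 3 batches, and spread more for Fli1, from 0.85 to 1.88 at 18 h.

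Ets1, a lymphoid Ets activator that restrains plasma cell differentiation, had the largest difference of the 9 members at every time. It lies at chr9:32636221-32757820 on the plus strand. At 0 h control libraries were at 7.10, 7.23 and 7.80 and Ikaros libraries at 12.44, 12.02 and 12.47. The lines were 4.93 ± 0.35 apart before 4-OHT (limma adjusted p = 1.71e-10), with Ets1 at rank 12 from the highest of all genes. At 2 h Ikaros libraries were at 10.77, 10.76 and 10.28, each under every 0 h library of that line, and the difference was 3.58. The change from 0 to 2 h, -1.36 ± 0.50, was not called (limma adjusted p = 0.184).

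From there Ets1 climbed. Ikaros libraries were at 12.08, 11.20 and 11.55 at 6 h, at 13.18, 12.91 and 12.49 at 12 h, at 14.78, 14.52 and 15.34 at 18 h and at 15.39, 14.54 and 15.31 at 24 h. Control libraries from 2 to 24 h lay between 6.06 and 7.95, with adjusted p = 0.617 in the limma F test of time in control cells. The difference was 8.24 ± 0.35 at 18 h (limma adjusted p = 2.95e-16) and 7.84 ± 0.35 at 24 h (limma adjusted p = 3.3e-16). At both times it ranked 2 from the highest of 12762 genes, after Itgb3 (8.36) at 18 h and Edil3 (8.98) at 24 h. It was also wider than that of Ikzf1, the transgene's own gene, which was 6.20 at 18 h. The changes from 0 to 24 h (2.91 ± 0.50, limma adjusted p = 2.52e-05) and from 2 to 24 h (4.27 ± 0.50, limma adjusted p = 9.73e-08) were called. With control so far under the library medians, the size of the fold rests on low control values.

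Fli1, a neighbour of Ets1 and an Ets factor of megakaryocytes, vessels and blood progenitors, lies at chr9:32422204-32542861 on the minus strand. The genes are 93.4 kb apart with 0 protein-coding genes wholly between them, and were the 2 genes of the table within 500 kb on either side. At 0 h, when Ets1 already differed, Fli1 was at 14.36, 14.12 and 14.37 in control and 14.48, 14.19 and 14.43 in Ikaros libraries, a difference of 0.08 ± 0.24 (adjusted p = 0.919). At 18 h Ikaros libraries were at 14.91, 14.85 and 15.01, above control at 14.06, 13.75 and 13.13, a difference of 1.28 ± 0.24 (limma adjusted p = 6.58e-05). At 24 h they were at 15.22, 15.01 and 15.06 against 13.98, 13.98 and 13.74, where limma gave adjusted p = 0.000126 and a mean of 15.10 against 13.90. Fli1 was called at these last 2 times, and both groups lay above every other Ikaros group.

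At 2 h the Fli1 means were 13.46 in Ikaros and 14.06 in control cells, a difference of -0.60 (limma adjusted p = 0.0904, and 0.0195 with the batch block) that lay between -0.64 and -0.57 in the 3 batches. The change from 2 to 24 h was 1.79 ± 0.35 (limma adjusted p = 0.000114) and from 0 to 24 h 1.11 ± 0.35 (limma adjusted p = 0.00907). The latter missed the threshold without replicate 1, culture batch 1 (adjusted p = 0.0668), or without replicate 2 (adjusted p = 0.1).

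Elf1, an Ets activator of lymphocyte genes at chr14:79481194-79582494 on the plus strand, rose earlier than Fli1. At 0 h libraries were at 14.23, 14.08 and 14.18 in control and 14.50, 14.42 and 14.39 in Ikaros cells, apart but not called (difference 0.27 ± 0.24, limma adjusted p = 0.620). At 6 h Ikaros libraries were at 15.05, 14.69 and 14.51 and control libraries at 13.48, 13.82 and 13.00. That difference of 1.32 ± 0.24 was the first called (limma adjusted p = 9.48e-05). The difference was 1.00 at 12 h and stood at 1.72 and 1.65 at the last 2 times. At 24 h Ikaros libraries were at 15.53, 15.48 and 15.61 against 14.00, 14.05 and 13.62. The lines did not overlap from 6 h on. The control mean at 6 h, 13.43, was its lowest of the course, and the batch differences then ran from 0.87 to 1.57. The changes from 0 to 24 h (1.38 ± 0.34, limma adjusted p = 0.00136) and from 2 to 24 h (1.18 ± 0.34, limma adjusted p = 0.00547) were called. The difference at 12 h and the change from 2 h missed the threshold without replicate 2 (adjusted p = 0.0520 and 0.0775).

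Gabpa, the DNA-binding subunit of the GABP complex that drives nuclear genes for mitochondrial proteins, lies at chr16:84834925-84863779 on the plus strand and moved least among the Ets members. Its group means were 13.10 to 13.64 in control and 13.52 to 13.85 in Ikaros cells. It was called higher at 6 h (0.54 ± 0.16, limma adjusted p = 0.0104), 18 h (0.41, limma adjusted p = 0.0317) and 24 h (0.39, limma adjusted p = 0.0381). At 24 h Ikaros libraries were at 13.90, 13.86 and 13.78 and control libraries at 13.59, 13.65 and 13.13, without overlap. At 6 h the control mean was again its lowest. These 3 calls were lost without replicate 1, without replicate 2 and with only the compared groups in the fit (limma adjusted p of 0.0534 to 0.164 over these).

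Etv6, an Ets repressor needed by adult blood stem cells, was the one Ets factor of the 9 members called lower. It lies at chr6:134035700-134270158 on the plus strand. The 250 bases before its start in the RefSeq table (GRCm38.p6, chr6:134035450-134035699, plus strand) are shown because Etv6 fell within 2 h like Runx1. Capitals mark the Ikaros letters TGGGAA at positions -63 to -58, and there was no Runx or Ets match.

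Etv6 start: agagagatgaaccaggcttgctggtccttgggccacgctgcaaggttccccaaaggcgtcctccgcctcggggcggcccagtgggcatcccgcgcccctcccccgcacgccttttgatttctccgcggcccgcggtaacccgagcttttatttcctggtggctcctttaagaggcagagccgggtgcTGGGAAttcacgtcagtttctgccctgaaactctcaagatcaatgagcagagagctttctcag

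At 0 h Etv6 was at 12.75, 12.67 and 13.00 in control and higher, at 13.30, 13.21 and 13.49, in Ikaros libraries. The lines did not overlap, the batch differences lay between 0.49 and 0.55, and the difference of 0.53 ± 0.23 was not called (limma adjusted p = 0.191). It was not called with the culture batch block either (limma adjusted p = 0.0636). With a block that gave the 0 h cultures batches of their own, limma adjusted p was 0.0232. At 2 h Ikaros libraries were at 11.83, 12.17 and 11.45 against 12.74, 12.78 and 12.05 in control. The difference had turned to -0.71 ± 0.23 (limma adjusted p = 0.0311), with an overlap that came from batch 4 of control. At 6 h Ikaros libraries were at 11.87, 11.39 and 11.17 and control libraries at 12.88, 12.62 and 12.18, -1.08 apart (limma adjusted p = 0.000518).

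Unlike Runx1, Etv6 did not return. Its Ikaros libraries were at 11.83, 11.73 and 11.68 at 24 h, under control at 12.83, 12.79 and 12.57, and the difference was -0.99 ± 0.23 (limma adjusted p = 0.000528). The 5 Ikaros groups from 2 h on overlapped their neighbours in order, and 0 h was separate above them. The change was -1.23 ± 0.32 from 0 to 2 h (limma adjusted p = 0.0316), -1.51 ± 0.32 from 0 to 24 h (limma adjusted p = 0.000346) and -0.28 ± 0.32 from 2 to 24 h (adjusted p = 0.501). The difference at 2 h and the change from 0 to 2 h were lost without replicate 1 (limma adjusted p = 0.274 and 0.416), without replicate 2 (limma adjusted p = 0.235 and 0.492) and with only the compared groups in the fit (limma adjusted p = 0.203 and 0.0937). The call at 18 h was lost without either of these replicates (limma adjusted p = 0.120 and 0.109), and that at 12 h without replicate 1 (limma adjusted p = 0.0570).

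By the number of changes called in the difference between lines, 2 members changed from 0 to 2 h, Runx1 and Etv6, both downward, where 3.1% of all genes changed, 1.21% upward and 1.89% downward. From 0 to 24 h 4 members did, Ets1, Fli1 and Elf1 upward and Etv6 downward, against 48.4%, with 24.2% in each direction. From 2 to 24 h 6 did, Runx1, Ets1, Fli1 and Elf1 upward and Runx2 and Runx3 downward, against 47.3%, of which 23.3% upward and 24% downward. These changes share groups with each other and are given side by side only.

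The other Ets genes, from a list of relatives, had 12 of 21 members in the table. At 0 h 1 was called higher and 0 lower (4.61% and 3.72% of all genes), and at 2 h 0 higher and 1 lower (9.18% and 9.88%). At 6 h 1 was higher and 0 lower (18.1% and 19.2%). At 24 h 5 were higher and 3 lower (31% and 31.9% of all genes), a share near the 62.9% of all genes called. The median difference at 24 h was 0.03 beside -0.01 over all genes. Spib, a B lineage Ets factor related to PU.1, was 12.70 ± 0.15 (SD, n = 3) in Ikaros and 6.64 ± 0.48 in control cells at 24 h, a difference of 6.06. Ets2 (2.05) and Elk3 were also higher. Etv4, an Ets factor downstream of FGF and ERK signals, was 9.06 ± 0.64 against 13.32 ± 0.19, a difference of -4.26, and its close relative Etv5 (-2.27) and the ERK-controlled repressor Erf (-1.24) were lower too.

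Of the cofactors that Runx and Ets factors bind, 18 of 19 were in the table. At 2 h 5 were called higher (9.18% of all genes), at 18 h 10 higher and 2 lower (29% and 29.2%), and at 24 h 8 higher and 2 lower (31% and 31.9%), so that the share called at 24 h was under the 62.9% of all genes, with a 24 h median of 0.20. Tle2, a Groucho corepressor, was 1.85 higher at 24 h and 1.01 higher already at 2 h. The corepressor Cbfa2t3 was 1.13 higher at 24 h, but also 1.01 higher at 0 h, and the acetyltransferase Ep300 was 1.01 higher at 24 h and 0.10 at 0 h, where it was not called (limma adjusted p = 0.849). The arginine methyltransferase Prmt1 (-1.59) and Ncor1 (-0.30) were lower. Gabpb1, the activating partner of Gabpa, was 0.85 higher at 2 h and 0.72 at 6 h and only 0.11 at 24 h (limma adjusted p = 4.21e-08, 2.63e-07 and 0.271).

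Genes of the B lineage that Runx and Ets factors are known to act on had 14 of 16 members in the table. At 2 and 6 h 1 was higher, where 9.18% and 18.1% of all genes were, and 6 were lower, where 9.88% and 19.2% were. At 12 h 8 were higher and 3 lower (23% and 22.8% of all genes), and at 24 h 10 higher and 3 lower (31% and 31.9%). The median difference was -0.43 at 6 h and 1.61 at 24 h, beside -0.01 over all genes at both. At 24 h the recombinase gene Rag1 was 5.19, the adaptor Blnk 4.14 and the kinase Syk 2.33 higher. The surrogate light chain genes Igll1 and Vpreb1 were at -3.96 and -3.42, and the survival gene Bcl2 was at -2.20.

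The mitochondrial genes known as Gabp targets were all 9 in the table. At 24 h 7 of them were called lower, where 31.9% of all genes were, with a median of -0.63 over the 9, and Gabpa itself was 0.39 higher. Atp5b, a subunit of ATP synthase, was -1.13, the mitochondrial rRNA methyltransferase Tfb1m -0.80 and the cytochrome oxidase subunit Cox6a1 -0.67. The 4 lists were chosen by known function and are described by counts.

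**Figure D4:**
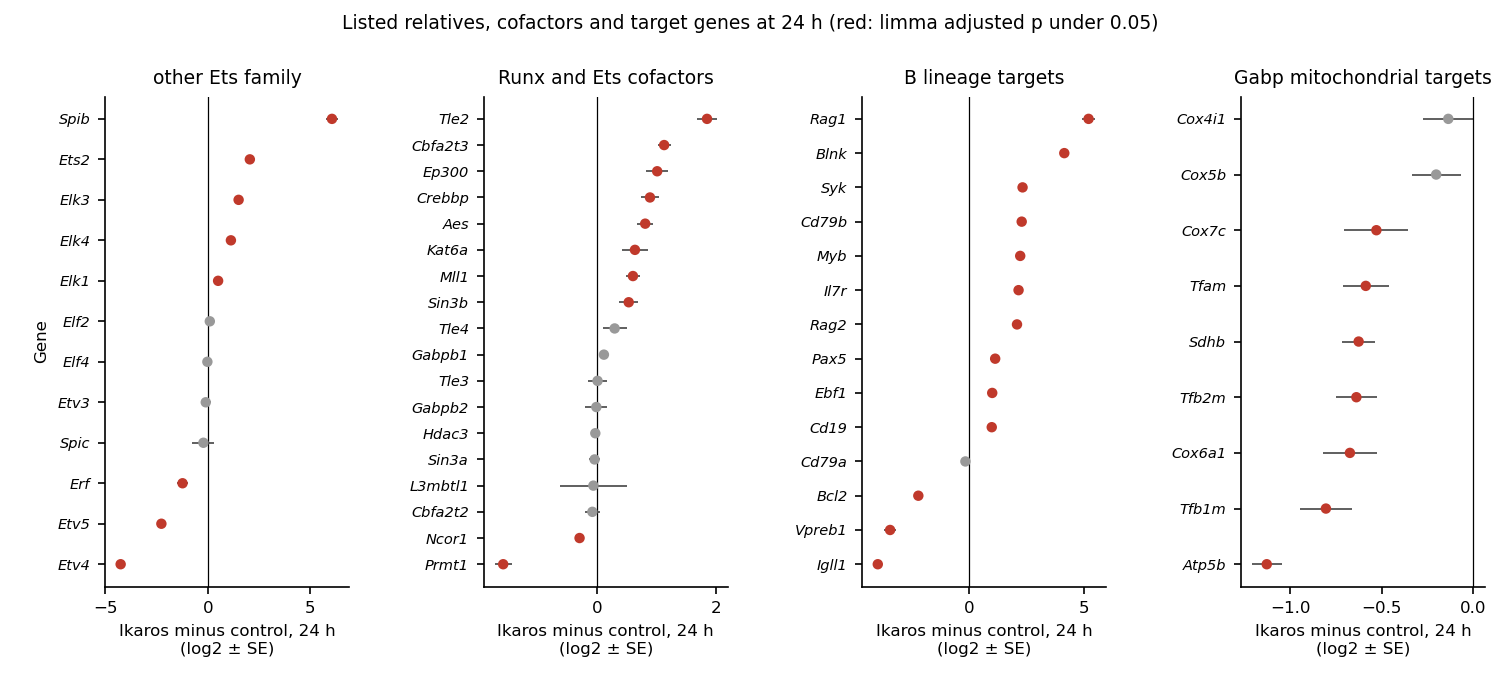
Log2 difference, Ikaros minus control, at 24 h (x axes, which differ) with its SE for each gene of the 4 lists in the table, red where the limma adjusted p is under 0.05 and grey otherwise. Spib at 6.06 and Etv4 at -4.26 mark the ends of the Ets relatives, and the 9 mitochondrial genes all lie below 0.

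By likeness of the 12 group means, each centred on its own mean, the nearest genes to each changing member were found by root-mean-square (RMS) difference in log2 units. Runx1 lay nearest to Trim16 (0.21), Il17ra (0.21) and Rreb1. Trim16 was -1.76 at 2 h and 0.56 at 24 h. Runx3 lay nearest to Degs1, Zfp318 and Agpat3, and Etv6 to Ppm1f, Fchsd2 and Tmem55a. Ets1 lay nearest to Klra1 (0.67), Itgb3 (0.81) and Ret (0.92), wider distances than for any other member. The RMS of the centred means of Ets1 itself was 3.15. Klra1, Itgb3 and Ret were 3.10, 3.44 and 3.40 higher at 0 h and 7.28, 5.97 and 5.88 higher at 24 h. At 2 h they were 2.91, 3.67 and 3.88 higher, so Itgb3 and Ret were without the smaller 2 h difference of Ets1. Fli1 lay nearest to Kat2b, Tspan14 and Zfp46, Elf1 to Khnyn, Gna12 and Dock8, and Runx2 to Actr3b, Spef1 and Relt. The measure runs over 12 groups and describes shape alone.

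Some markers of other cells also differed between the lines. The 2 myeloid markers in the table had library means of 4.83 to 6.79 in control and 6.14 to 7.91 in Ikaros cells. Lyz2 was 2.94 higher at 0 h (limma adjusted p = 0.000627) and at -2.94 at 24 h, and Itgam was at -0.78 at 0 h, where it was not called, and 4.24 higher at 24 h. The endothelial marker Pecam1 was at -0.84 at 2 h (limma adjusted p = 0.00561), 1.32 higher at 18 h and 1.29 at 24 h, and Vwf was called at 6 h alone, at -0.78. The T cell marker Lat was 0.66 higher at 0 h (limma adjusted p = 0.0189) and at -2.34 at 24 h, and Cd5 was called higher at 6 and 12 h, by 0.73 and 1.62. The library means of that pair ran from 7.85 to 9.69. The 4 megakaryocyte and erythroid markers had library means of 6.58 to 7.82. At 0 h Gp9 was 1.93 higher (limma adjusted p = 0.0222) and Hbb-b1 at -2.02 (limma adjusted p = 0.00635), and Hbb-b1 was also called lower at 2 and 6 h, at -2.13 and -1.25. Neither was called from 12 h on, and Itga2b and Epor were called at no time. The part of these markers in the results was not tested.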

How the data were processed

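The study prepared strand-specific poly(A) mRNA libraries from 2 B3 lines at 6 times in 3 culture batches each. Per the methods and the submitters' processing notes, the authors mapped reads with TopHat2 to mm10, assigned them to genes with HTSeq, corrected GC content and gene length with cqn and removed library-preparation effects with ComBat. The deposited values, from 1 to 22.0, were used as log2 expression without further scaling or pseudocount. Raw counts were not used, so the depth behind each value is unknown and no counting interval is given. Removing a batch effect before testing can make the standard errors too small.

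All 12762 genes were fitted in limma 3.58.1 (R 4.3.3) with 12 group means over 36 libraries, two-sided, with Benjamini-Hochberg adjustment over all genes at 0.05. The script was checked on simulated data. Contrasts were the 6 differences between lines, 3 changes of that difference, and F tests over time. Groups and batch numbers came from the labels, which share numbers between lines. Deviations of the lines in one batch and time correlated at -0.06 to 0.51 (median 0.13, above 0.1 in 12 of 18 pairs). Alternatives were the batch block, own batches for 0 h, only the compared groups, each replicate number left out, quantile normalization, a trend and robust variance model, and a filter that left out genes whose mean was under the 25th percentile. The most alike libraries had identical values for 0.384% of genes. The replicates are repeat cultures of 1 line per vector, so p-values measure the spread between cultures.

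Gene positions came from GENCODE (GRCm38), where 98.7% of the table's genes matched, and promoter windows from the RefSeq table. Every listed member was named, with up to 3 genes a direction from each other list by the size of the called difference at 24 h, and the 3 nearest genes by RMS. Gabpb1 and genes ahead of Ets1 in rank were named after their values were seen. The members and lists were chosen with earlier results of these data known. One listed cofactor is not reported here. Kmt2a was read under its older symbol Mll1.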

Additional observations from a re-analysis of the deposited data

Results flagged for a closer look

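Some members had a difference between the Ikaros and control lines that changed between times, by the limma test of the change itself. From 0 to 2 h the difference changed by -1.55 for Runx1 and by -1.23 for Etv6. From 0 to 24 h it changed by 2.91 for Ets1, 1.11 for Fli1, 1.38 for Elf1 and -1.51 for Etv6. From 2 to 24 h it changed by 1.69 for Runx1, -1.23 for Runx2, -0.78 for Runx3, 4.27 for Ets1, 1.79 for Fli1 and 1.18 for Elf1. All values are log2 differences, and each group had 3 libraries. The changes from 0 h compare cultures collected on separate occasions, and occasion and time cannot be told apart there.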

How the results depend on the processing

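No called difference or change of a single member turned its direction under any alternative, while some that were not called did, such as Cbfb at 0 h and 2 h and Fli1 at 6 h with a replicate left out. Over the members, and at 24 h the genes named from the 4 lists, 1031 single results kept their side of the threshold, 32 passed it under an alternative only and 49, all of members, lost their call. Of the counts of members called, 90 stayed within 1.5 times the reported count and 15 did not. With only the compared groups in the fit, 3 members were called at 2 h and 1 in the change from 0 to 2 h. Of the 12762 genes, 860 and 257 were called there. Without genes whose mean was under the 25th percentile, 1 was called at 0 h, since Runx2 was not among the genes tested. Over all genes tested there, 701 were called. With culture batch as a replicate block, 2 were called in the F test of time in control cells, Cbfb and Gabpa, where 763 genes were. Beside the values given with the results, the block changed no other call. Leaving out one replicate number at a time gave 1 to 2 members called at 0 h, 3 to 7 at 2 h, 5 to 7 at 6 h, 2 to 7 at 12 h (the 2 without replicate 2, when 3769 of 12762 genes were called), 4 to 7 at 18 h and 5 to 8 at 24 h. The changes gave 1 to 3 from 0 to 2 h, 3 to 4 from 0 to 24 h and 4 to 5 from 2 to 24 h, and the F tests 4 to 8 over the 5 changes, 0 to 0 in control and 7 to 7 in Ikaros cells. The 4 over the 5 changes came without replicate 1 (Runx2, Runx3 and Etv6 lost) and without replicate 2 (Runx3, Elf1 and Etv6 lost). Over all genes, 4821 and 4064 were called in these fits. The 3 at 2 h also came without replicate 1 and without replicate 2, where 962 and 804 genes were called. For the change from 0 to 2 h, the same fits called 1 member each, with 54 and 55 genes called. With 1 culture fewer per group every fit also has fewer libraries. Over all genes and alternatives the counts ran from 318 to 1497 at 0 h, 804 to 3135 at 2 h and 2150 to 5557 at 6 h. They ran from 3769 to 6545 at 12 h, 5432 to 7998 at 18 h and 6248 to 8495 at 24 h. For the changes they were 54 to 661 from 0 to 2 h, 4056 to 7095 from 0 to 24 h and 3775 to 6734 from 2 to 24 h. For the F tests they were 4064 to 8726 over the 5 changes, 0 to 763 in control and 6724 to 10294 in Ikaros cells. A block with own batches for 0 h could not be estimated for the F tests within a line, and the fit of only the compared groups is the same as the reported one for the 5 changes.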
